A study of Mus musculus with 24 samples.

Results

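Haematoendothelial genes, those that mark the mesoderm from which blood and blood vessels arise, were followed in mouse pluripotent stem cell lines and early embryonic tissue. The members were 9 genes chosen by name (Kdr, Flt1, Etv2, Tal1, Lmo2, Runx1, Gata1, Hbb-bh1 and Hbb-y), with every probe whose accession names 1 of them. That gave 13 of 27235 named probes and 9 of 20660 named genes. The members were chosen with earlier results of these data known. Shares of members called, set beside those of all genes, are therefore description only. Epiblast stem cells (EpiSCs) are lines taken from the postimplantation epiblast, and mouse embryonic stem cells (mESCs) are lines of the earlier, blastocyst state. The EpiSC lines Wt1 and 129C1 came from the original protocol, while 129Ba1, 129Ba2 and BNa17 were established with a Wnt inhibitor. 129C1 was measured both untreated and treated with IWP2, a compound that keeps Wnt proteins from being secreted. Of the mESC lines J1 and R1, J1 had a further group in 2i, a pair of inhibitors of Mek and Gsk3. All lines were kept undifferentiated on feeder layers and were parted from the feeders before RNA was taken. Embryonic tissue was dissected by hand: epiblast at E5.5 and at E6.5, and at E7.5 the embryonic ectoderm. Each of the 12 groups had 2 single-colour Agilent arrays, 24 in all, and no strain, sex, IWP2 dose or treatment time is given for them in the sources used here. Nothing in the labels tells whether replicates of a group were separate cultures or dissections. In comparisons of single groups, p-values measure the spread between replicate arrays over all 12 groups, which may be technical. In comparisons of kinds of line, they measure the spread between line means.

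In the gastrulating embryo, mesoderm cells that carry the Vegf receptor Kdr give rise to the first endothelial and blood cells of the yolk sac. Etv2, an Ets-family transcription factor, stands near the start of this programme, and Tal1, Lmo2 and Gata factors form a complex that drives the blood branch. Runx1 is needed for definitive blood cells, Gata1 for red cells and megakaryocytes, and Hbb-bh1 and Hbb-y are the embryonic beta-like globins of primitive red cells. Several of these genes are also transcribed outside blood and vessels. In bulk samples such as these, fewer cells of a type and less RNA per cell cannot be told apart.

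Levels are log2 processed signals relative to the 75th percentile of the same array, so 0 is that percentile, and levels of different probes are not compared. A probe counts as measured where the scanner software calls it well above background. Between 36.7% and 53.2% of probes were so on an array, and replicate arrays correlated at r of 0.966 to 0.989. BNa17 replicate 1 was the dimmest array, with a 75th percentile of 69.3 against at most 253 elsewhere. Of 11 pluripotency and stage genes, 9 to 11 were well above background on both arrays of each group. Of 22 endothelial genes 7 to 13, and of 20 erythroid and globin genes 5 to 10, were well above background on both arrays of a group. Among the rest, Cdh5, Tie1 and Erg of the endothelium and Rhag and Hbb-bs of red cells were so on no array. The 9 fibroblast genes used as feeder markers were well above background in all groups of cell lines, with a summed linear signal of 66 to 433 times the 75th percentile, against 6.16 to 14.8 in the embryonic tissue. The part of these feeder markers in the results was not tested.

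The stretch before the transcription start is shown for Gata1 and Flt1, which were both lower in IWP2-treated than in untreated 129C1. It is also shown for the globin Hbb-y, the member that differed most between the lines Wt1 and 129C1. RefSeq sequences of build GRCm38.p6 were found for 7 of the 9 members (not for Lmo2 and Hbb-bh1), and the 250 bases upstream of the start were searched on both strands. Capitals mark the words searched for: the GATA word (AGATAA, with T allowed first and G allowed last), the CACCC box, the CCAAT box, the TATA box (read as TATAAA) and the TCF/LEF word. The last, of the factors through which Wnt signals act, was CTTTGAA with T allowed at either of the final 2 places. No words of different motifs overlap in the windows printed.
Gata1, chrX:7967911-7968160, minus strand: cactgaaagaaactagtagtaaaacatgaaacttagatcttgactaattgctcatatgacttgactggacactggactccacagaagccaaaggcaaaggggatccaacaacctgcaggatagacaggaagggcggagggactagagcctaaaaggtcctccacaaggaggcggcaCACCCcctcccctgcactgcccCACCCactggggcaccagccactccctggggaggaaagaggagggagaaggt
Flt1, chr5:147726012-147726261, minus strand: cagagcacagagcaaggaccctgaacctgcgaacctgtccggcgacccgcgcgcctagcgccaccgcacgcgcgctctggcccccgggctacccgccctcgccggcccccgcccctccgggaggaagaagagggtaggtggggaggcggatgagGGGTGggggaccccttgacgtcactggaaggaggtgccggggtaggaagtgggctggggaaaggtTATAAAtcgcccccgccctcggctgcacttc
Hbb-y, chr7:103853208-103853457, minus strand: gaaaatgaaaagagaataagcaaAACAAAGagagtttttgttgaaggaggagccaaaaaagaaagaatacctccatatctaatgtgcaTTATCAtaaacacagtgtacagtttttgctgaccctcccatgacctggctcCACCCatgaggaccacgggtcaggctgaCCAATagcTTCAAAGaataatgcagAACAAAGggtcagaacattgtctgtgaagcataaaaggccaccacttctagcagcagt
The Hbb-y window held a GATA word starting 162 bases upstream, a CACCC box at 111, a CCAAT box at 83 and 3 TCF/LEF words at 227, 75 and 58 bases upstream. Gata1 held 2 CACCC boxes, at 74 and 52 bases, and Flt1 held a CACCC box at 96 and a TATA box at 31 bases. Neither the Gata1 nor the Flt1 window held a TCF/LEF or GATA word. Among 32851 mouse promoter windows of the same length, 26.5% held a GATA word, 52% a CACCC box, 33.8% a CCAAT box, 12.4% a TATA box and 14.8% a TCF/LEF word. These matches describe the letters of a window and are not binding sites.

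**Figure D1:**
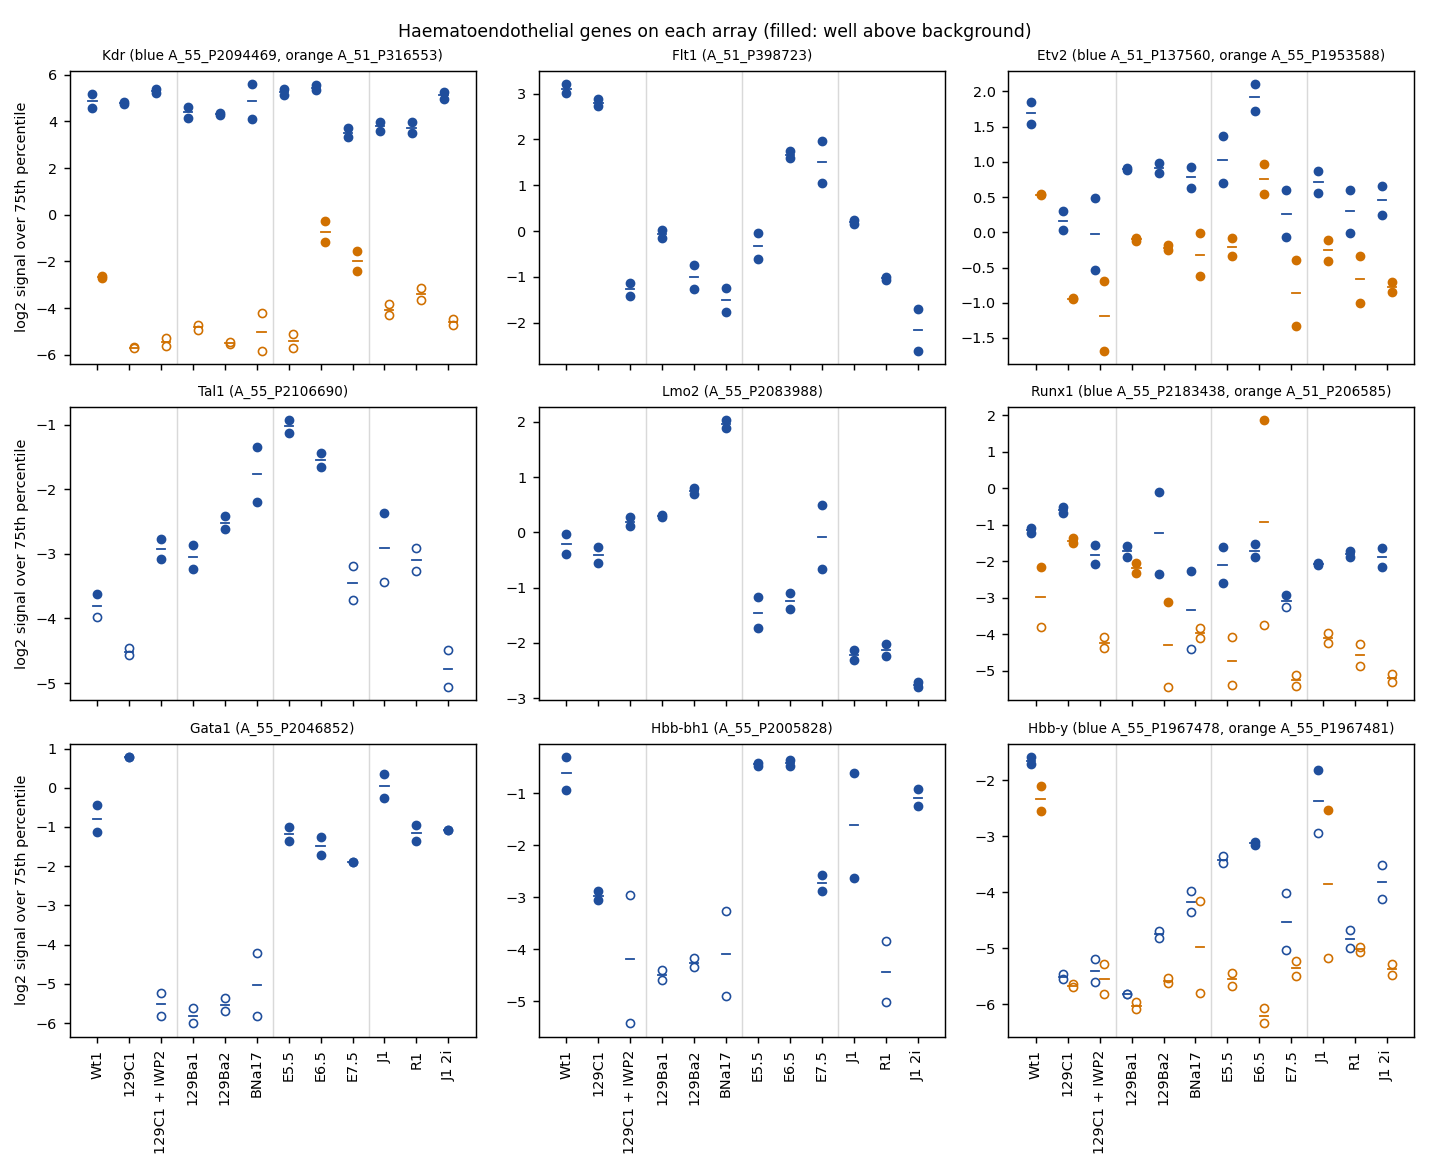
Level of each haematoendothelial gene (log2 signal over the array's 75th percentile) on the 2 arrays of each of 12 groups. Each circle is 1 array, filled where the probe was well above background; bars are group means, orange circles a 2nd probe. Gata1 was near -5.5 and not measured above background in 129C1 with IWP2 and in 129Ba1, 129Ba2 and BNa17.

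Across the 12 groups the Vegf receptors differed in their pattern. Flt1, Vegf receptor 1, which binds Vegf tightly and signals weakly, was well above background on all 24 arrays. Its group means ran from 3.11 ± 0.14 (SD, n = 2) in Wt1 and 2.80 ± 0.10 (SD, n = 2) in 129C1 down to -2.16 ± 0.64 (SD, n = 2) in J1 with 2i. Between these came E6.5 at 1.67, E7.5 at 1.5, J1 at 0.19, 129Ba1 at -0.06, E5.5 at -0.33, 129Ba2 at -1.0, R1 at -1.03, 129C1 with IWP2 at -1.27 and BNa17 at -1.51. Of the 11 steps in this order, 5 joined groups whose arrays overlapped, such as E6.5 and E7.5, or 129Ba2 and R1. The genes whose group means followed Flt1 most closely among 14436 genes were Lgr5, Dgkk and Cxcr4, each with a Pearson r of 0.93 over the 12 groups.

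Kdr, the main signalling receptor for Vegf, was read by 2 probes that did not agree (r of -0.15 over 12 groups). Probe A_55_P2094469, printed once per array, was bright on every array, between 3.32 and 5.60. Probe A_51_P316553, printed 10 times per array, was well above background only in E6.5, E7.5 and Wt1. Its mean level was -0.73 ± 0.63 (SD, n = 2) in E6.5, -1.98 ± 0.60 (SD, n = 2) in E7.5 and -2.67 ± 0.08 (SD, n = 2) in Wt1, against -3.40 in R1 and less in all other groups. Within an array the SD of the 10 spots lay between 0.090, on E6.5 replicate 2, where they ran from -0.42 to -0.11, and 0.84, on J1 replicate 2, where they ran from -5.12 to -2.98 and none was well above background. On Wt1 replicate 1, 7 of 10 spots were well above background, and on replicate 2 all 10. Mesp1, a transcription factor of nascent mesoderm, was among the 3 genes closest to the 10-spot probe (r of 0.93, beside Snx1 and Htr7), whereas Olfr156, an olfactory receptor gene, Khsrp and Cyp17a1 came closest to the bright probe (r of 0.97 to 0.98). The files do not give probe sequences, so what separates the probes was not tested, and both are given for each comparison. The bright one represents Kdr in counts of genes.

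**Figure D2:**
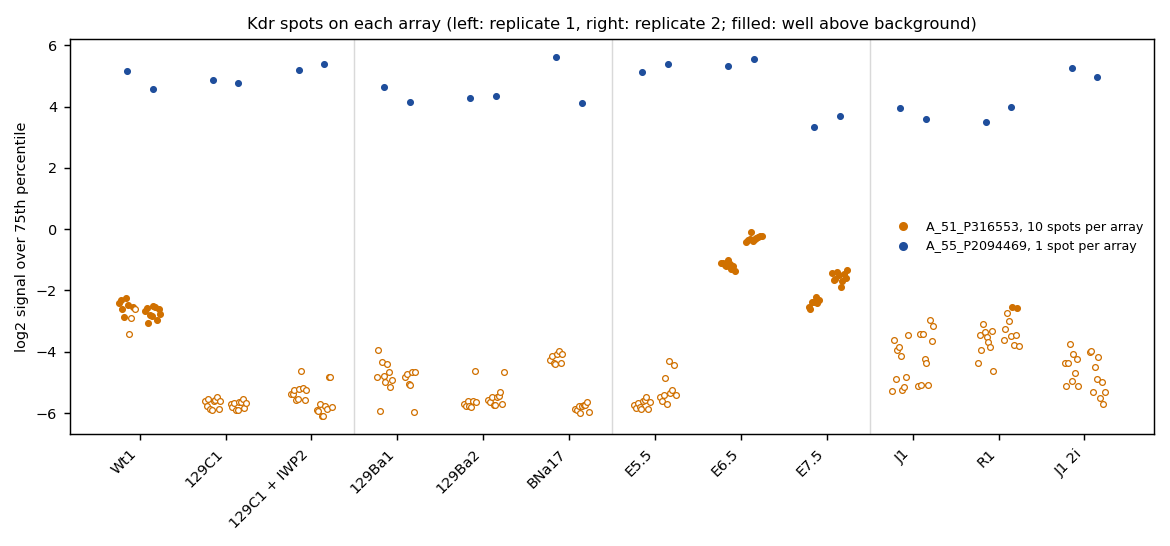
Level of every unflagged Kdr spot (log2 signal over the array's 75th percentile) in 12 groups, replicate 1 to the left and 2 to the right of each tick. The 10 spots of probe A_51_P316553 (orange) are highest in E6.5, E7.5 and Wt1, while the single spot of A_55_P2094469 (blue) is bright on all 24 arrays.

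Etv2 was well above background on all arrays with both of its probes, which followed each other (r of 0.99). It was highest in E6.5, at 1.91 ± 0.27 (SD, n = 2), and in Wt1, at 1.69 ± 0.22 (SD, n = 2). The other 10 groups lay between -0.03 and 1.03, and each overlapped its neighbour in the order. Lmo2, an adaptor protein of the blood transcription complex, had its highest mean in BNa17, at 1.96 ± 0.09 (SD, n = 2), followed by 129Ba2 at 0.74 and 129Ba1 at 0.30 without overlap, and its lowest levels in J1 (-2.22), R1 (-2.13) and J1 with 2i (-2.76). Tal1, the basic helix-loop-helix factor of the same complex, was highest in E5.5 at -1.03 ± 0.13 (SD, n = 2) and E6.5 at -1.54 ± 0.15 (SD, n = 2), and was not well above background on either array of 129C1, E7.5, R1 and J1 with 2i. Runx1 lay between -3.34 and -0.59 in group means of its brighter probe, with replicate SDs of up to 1.57. Its other probe, A_51_P206585, read 1.86 on one E6.5 array and -3.73 on the other, so E6.5 has no settled Runx1 level from it. Runx1 met the calling rule in none of 7 comparisons, with adjusted p of 0.108 to 0.847 by limma.

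Gata1 fell into 2 ranges. In 129C1, J1, Wt1, J1 with 2i, R1 and the 3 tissues it lay between -1.90 and 0.79 on single arrays and was well above background on all 16. In 129C1 with IWP2 and in the 3 lines established with a Wnt inhibitor it lay between -6.01 and -4.21, below the background call on all 8. The 2 sets of arrays did not overlap. Hhex, a homeobox gene of anterior endoderm and of blood and vessel progenitors, followed Gata1 most closely (r of 0.94 over 12 groups), before Kcns3 and Cfap52 at 0.93. Hbb-bh1 was highest in E6.5 (-0.42), E5.5 (-0.44), Wt1 (-0.61), J1 with 2i (-1.09), J1 (-1.62) and E7.5 (-2.73), each overlapping the next in this order. It was not well above background in 129C1 with IWP2, 129Ba1, 129Ba2, BNa17 or R1. Hbb-y was dim throughout, and its brighter probe was above background on both arrays only in Wt1, at -1.65 ± 0.10 (SD, n = 2), and E6.5, at -3.13 ± 0.046 (SD, n = 2). Its other probe, A_55_P1967481, was so only in Wt1, at -2.33 ± 0.31 (SD, n = 2), and had its lowest mean, -6.21, in E6.5, so the probes do not give the same reading for that stage. J1 replicate 1 read -0.61 for Hbb-bh1 and -1.81 for Hbb-y, against -2.63 and -2.95 on replicate 2, so the globins separated these 2 arrays. The beta-like globins are similar genes, and cross-reaction between their probes was not tested.

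The comparison of IWP2-treated with untreated 129C1 asks which of these genes differ with the treatment in an established line. Gata1 and Flt1 fell and Tal1 rose, while 5 other members tested did not pass. Gata1, the erythroid and megakaryocyte factor, read 0.79 and 0.78 in untreated cells and -5.23 and -5.81 in treated cells. Flt1 read 2.87 and 2.73 untreated and -1.13 and -1.41 treated. Tal1 read -4.46 and -4.57 untreated, under the background call, and -2.76 and -3.08 treated. In all 3 genes the treated and untreated arrays were apart. Such separation, here and in the later comparisons, only describes genes already called, and its share over all genes is not given. The log2 difference was -6.30 ± 0.40 (SE) for Gata1 (limma, adjusted p = 1.7e-07), a level at least 20.9-fold lower, since treated cells were not above background. Flt1 fell by 4.07 ± 0.31 on the log2 scale (limma, adjusted p = 1.1e-06), a 16.8-fold difference, and remained measurable. Tal1 rose by 1.59 ± 0.34 (limma, adjusted p = 0.0079), at least 1.67-fold. That bound is short of 2-fold, and Tal1 was tested only because treated cells were above background. By limma at an adjusted p below 0.05 and 2-fold or more, 3 of 8 tested members were called, against 4.25% of all 13383 genes tested (2.77% lower and 1.48% higher).

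Members that did not pass were Etv2, Kdr, Lmo2, Runx1 and Hbb-bh1. The Kdr bright probe differed by 0.49 ± 0.36 and its 10-spot probe was under the background call on all 4 arrays, so it was not tested. Etv2 differed by -0.19 ± 0.33, Lmo2 by 0.61 ± 0.28 and Runx1 by -1.22 ± 0.62. Hbb-bh1 read -2.89 and -3.04 untreated and -2.96 and -5.43 treated, a difference of -1.23 ± 0.71. Its treated arrays were far apart, and 1 of them lay among the untreated. Hbb-y was above background in neither group.

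Around the members, 1 of 10 tested erythroid and globin genes was called, Zfpm1 (Fog1, the partner protein of Gata1), which fell by 1.54. Of 11 haematopoietic regulators and surface proteins tested, Ikzf1, a lymphoid factor, fell at least 4.41-fold and the receptor Kit fell by 1.47, while Runx1t1 rose by 1.22. Of 11 endothelial genes tested, the Ets factors Fli1 (at least 3.68-fold) and Ets1 (1.12) rose and the clotting factor gene Vwf fell by 2.48. None of 10 Vegf and Pdgf ligand, receptor and hypoxia genes was called by limma. Of 7 early mesoderm genes tested, T (at least 9.61-fold), Lhx1, Eomes and Snai1 fell. The list medians were -0.05 for erythroid, -0.04 for haematopoietic, 0.14 for endothelial and -1.40 for mesoderm genes, beside -0.04 over all genes tested. The marker list that moved most beside Gata1 and Flt1 was definitive endoderm, whose 9 of 9 genes fell. Its summed signal was 96.3 to 115 in untreated and 0.50 to 0.612 in treated cells, and its part in the fall of Gata1 and Flt1 was not tested. Feeder genes summed to 86 to 97.5 untreated and 72.4 to 119 treated.

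Treated and untreated cells never shared a slide, and the effects of slide and IWP2 cannot be told apart. Against Wt1, which shared the treated cells' slide, Gata1 (-4.73) and Flt1 (-4.38) were again lower, while Tal1 at 0.88 lost its call (limma, adjusted p = 0.066). Tal1 also lost it without treated replicate 1 (0.0665), without untreated replicate 2 (0.0655) and with another background correction (0.38 on the log2 scale, adjusted p = 0.329), over a range of adjusted p from 0.00258 to 0.329.

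**Figure D3:**
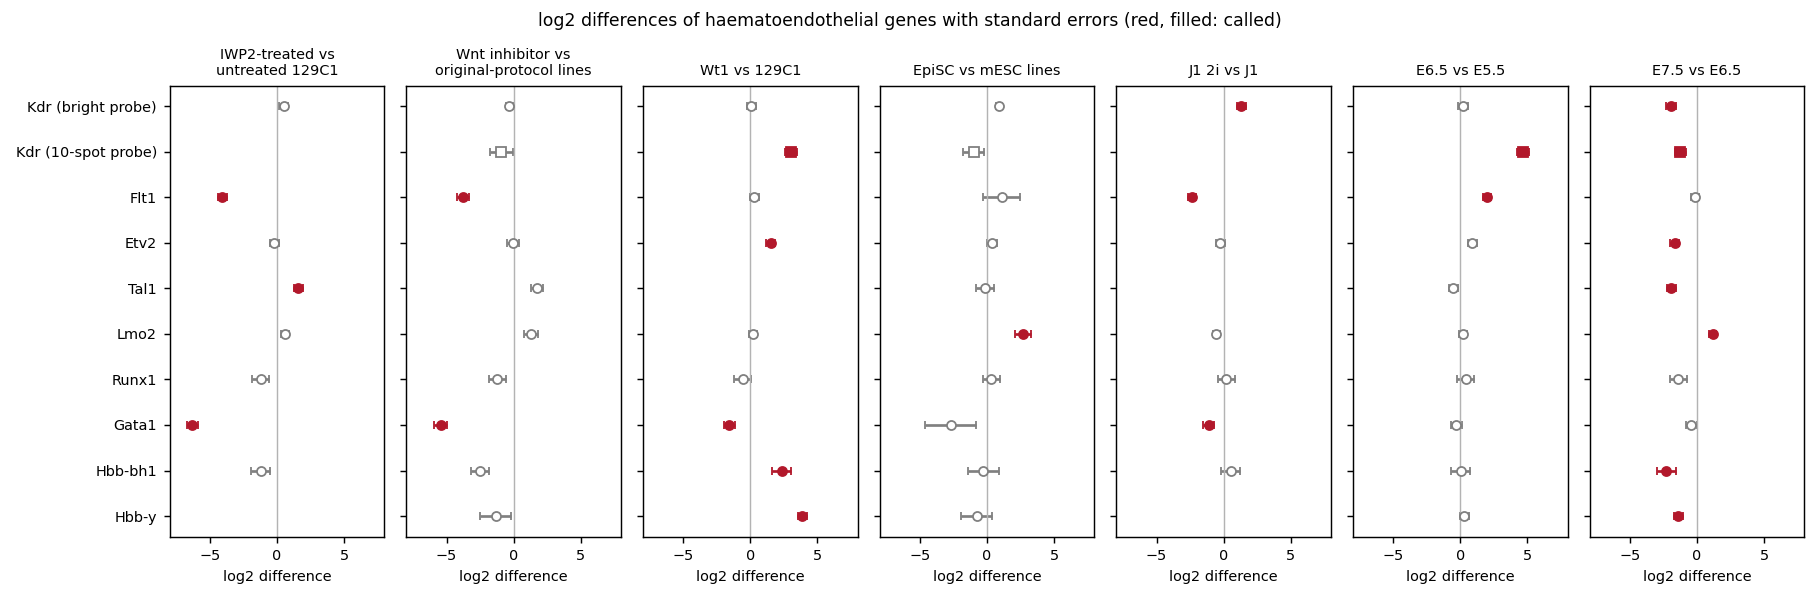
Log2 difference of each member in 7 comparisons, with the standard error of the fit as bars; filled red symbols passed an adjusted p of 0.05 and 2-fold. Squares are the 10-spot probe of Kdr, and a gene without a symbol was not tested. Gata1 and Flt1 lie far to the left in the 2 comparisons of Wnt inhibition.

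Lines established with a Wnt inhibitor were compared with the original-protocol lines over line means, 3 lines against 2. The lines 129Ba1 and 129Ba2 share the first part of their names, and whether they arose independently is not known here. They may therefore not be independent replicates. Gata1 and Flt1 were the members that passed, both lower with the inhibitor: 2 of 9 tested members, against 1.58% of 14038 genes (1.04% lower and 0.541% higher), all by limma. Line means of Gata1 were -5.81 in 129Ba1, -5.52 in 129Ba2 and -5.02 in BNa17, against -0.79 in Wt1 and 0.78 in 129C1. For Flt1 they were -0.06, -1.0 and -1.51, against 3.11 and 2.80. The 2 kinds of line did not overlap for either gene. Gata1 was lower by a log2 of 5.45 ± 0.51 (limma, adjusted p = 0.0139), at least 11.3-fold. Flt1 was lower by 3.81 ± 0.44 (limma, adjusted p = 0.0271).

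Hbb-bh1, the embryonic globin, showed a log2 difference of -2.49 ± 0.68 that did not pass (limma, adjusted p = 0.165). It was above background on all 4 original-protocol arrays and on none of 6 Wnt inhibitor arrays. Tal1 differed by 1.72 ± 0.44 (limma, adjusted p = 0.148), above background on 6 of 6 Wnt inhibitor arrays and on 1 of 4 others. Lmo2 differed by 1.31 ± 0.50 and Runx1 by -1.22 ± 0.65. Etv2 differed by -0.07 ± 0.45, Hbb-y by -1.33 ± 1.16 and Kdr by -0.32 ± 0.24 with the bright and -0.92 ± 0.86 with the 10-spot probe, none passing. Hbb-y and the 10-spot probe of Kdr were each above background on 0 of 6 Wnt inhibitor arrays and 2 of 4 others. Their differences thus rest in part on levels under background. Zfpm1 fell by 2.40, the only 1 of 9 erythroid genes called by limma. Runx1t1, at 1.39 higher, was 1 of 15 haematopoietic regulators, and no endothelial gene of 13 was called. Of 12 early mesoderm genes, Lhx1 and Eomes were lower. All 9 definitive endoderm genes were lower, with sums of 45.4 to 115 in the original-protocol lines and 0.460 to 0.770 in the others, and their part in the result was not tested. Feeder genes summed to 351 to 433 in 129Ba1, 115 to 222 in 129Ba2 and 111 to 120 in BNa17. In Wt1 they summed to 188 to 269 and in 129C1 to 86 to 97.5, with 0 of 9 called, and their part was not tested either. This comparison shares the untreated 129C1 arrays with the IWP2 comparison, so the agreement of Gata1 and Flt1 between them is in part built in.

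With so few lines the calls were not stable. Gata1 lost its call without 129Ba1, 129Ba2 or BNa17 (adjusted p of 0.0539, 0.077 and 0.0753, at differences of -5.66 to -5.27) and under normexp background correction (-1.67, adjusted p = 0.0513). Flt1 lost its call without 129Ba2, BNa17 or Wt1 (adjusted p of 0.0660 to 0.124, at -3.74 to -3.48) and with slide as a block (-3.66, adjusted p = 0.0681), where the 3 lines are set against 129C1 on their own slide. In that within-slide comparison Gata1 differed by -6.23.

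Wt1 and 129C1, both of the original protocol, differed in the blood genes in another way. The embryonic globins and Etv2 were higher in Wt1 and Gata1 was lower. Of 8 tested members 4 were called by limma, 3 higher and 1 lower in Wt1, against 11.2% of 13418 genes (5.93% higher and 5.31% lower). Hbb-y read -1.72 and -1.58 in Wt1 and -5.46 and -5.55 in 129C1, where it was below the background call. Hbb-bh1 read -0.93 and -0.30 in Wt1 and -2.89 and -3.04 in 129C1. Etv2 read 1.85 and 1.54 against 0.30 and 0.03. Arrays of the 2 lines did not overlap in any of these genes. Hbb-y was at least 4.03-fold higher (log2 difference 3.86 ± 0.34, limma, adjusted p = 1.1e-06), and its dimmer probe gave 3.34 ± 0.59. Hbb-bh1 was higher by 2.35 ± 0.71 (5.11-fold; limma, adjusted p = 0.0269) and Etv2 by 1.53 ± 0.33 (2.89-fold; limma, adjusted p = 0.00369). Gata1 was lower by 1.57 ± 0.40 (2.97-fold; limma, adjusted p = 0.0114), at -0.44 and -1.13 against 0.79 and 0.78.

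The 10-spot probe of Kdr was higher in Wt1 by 3.03 ± 0.43 (at least 1.99-fold; limma over all named probes, adjusted p = 0.00012), while the bright probe differed by 0.07 ± 0.36. Flt1 (0.31 ± 0.31), Runx1 (-0.56 ± 0.62) and Lmo2 (0.21 ± 0.28) did not pass. The adult alpha globins Hba-a2 (3.73) and Hba-a1 (3.21) were the 2 of 9 erythroid genes called, both higher. Of 14 haematopoietic genes, 4 were higher and 3 lower, among them the platelet chemokine Pf4 (at least 2.54-fold) and the progenitor antigen Cd34 (2.65) higher, and Myb (-2.19) and Ikzf1 (-1.74) lower. Of 11 endothelial genes, Robo4 (at least 5.73-fold), Eng (1.76) and Ets1 (1.04) were higher and She was at least 4.90-fold lower. Of 10 Vegf and Pdgf genes, Pdgfra (2.54), Nrp2 (1.64) and Vegfd (1.15) were higher. Of 11 early mesoderm genes, 6 were higher, led by Mesp1 (at least 6.91-fold), T (3.02) and Foxc1 (at least 6.40-fold). The medians were 1.66 for mesoderm, 0.53 for haematopoietic, 0.43 for endothelial and -0.39 for erythroid genes, beside -0.08 over all genes.

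Feeder markers moved with the same line. Of 9 fibroblast genes, 6 were higher in Wt1, and the list summed to 188 to 269 in Wt1 against 86 to 97.5 in 129C1. Their part in the differences was not tested. Wt1 was on one slide and untreated 129C1 on another, and line and slide cannot be told apart. Leaving out any 1 of the 4 arrays ended the call of Hbb-bh1 (limma, adjusted p of 0.062 to 0.15, at 2.04 to 2.67), and leaving out Wt1 replicate 2 or either 129C1 array ended that of Gata1 (0.0625 to 0.114, at -1.57 to -1.22). Under normexp correction the Hbb-y difference was 0.97, short of 2-fold.

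The 5 EpiSC lines were next set against the 2 mESC lines, over line means. Lmo2 was the member that passed, higher in EpiSCs: 1 of 9, against 25% of 14434 genes called by limma (12.9% higher and 12.1% lower). Line means of Lmo2 were 1.96 in BNa17, 0.74 in 129Ba2, 0.30 in 129Ba1, -0.20 in Wt1 and -0.41 in 129C1, against -2.22 in J1 and -2.13 in R1. Each EpiSC line was above both mESC lines, and the difference was 2.65 ± 0.60 (6.28-fold; limma, adjusted p = 0.0132). The bright Kdr probe differed by 0.89 ± 0.22 (limma, adjusted p = 0.018), short of 2-fold, and the 10-spot probe by -1.0 ± 0.77. The 10-spot probe was above background on 2 of 10 EpiSC and 0 of 4 mESC arrays, so its difference rests in part on levels under background. Gata1 differed by -2.71 ± 1.90, with J1 at 0.05, between Wt1 and 129C1, and R1 at -1.16, below Wt1 and above the lines of the Wnt inhibitor. Flt1 differed by 1.09 ± 1.36, and Etv2 (0.38), Runx1 (0.33), Tal1 (-0.13), Hbb-bh1 (-0.26) and Hbb-y (-0.77) did not pass either, with limma adjusted p of 0.45 or more. Hbb-y was above background on only 2 of 10 EpiSC and 1 of 4 mESC arrays.

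Of 14 endothelial genes tested, 5 were lower in EpiSCs and 0 higher by limma, with a median of -1.69 beside -0.01 over all genes: Robo4 (-4.36), Esam (at least 7.17-fold lower), Vwf (-3.62), Rasip1 (-2.64) and Pecam1 (-2.12). Of 15 haematopoietic regulators, Ldb2 (at least 7.67-fold), Cd93 (at least 1.20-fold) and Cbfa2t3 (1.49) were higher, and Gata2 (-2.95) and Kit (-2.04) were lower. In the erythroid list the erythropoietin receptor Epor was higher (1.88) and the transferrin receptor Tfrc lower (-1.85), 2 of 10 tested. Vegfa was higher (2.21) and Vegfc lower (-2.64), and among 12 mesoderm genes Bmp4 was lower (-3.41). The EpiSC and mESC arrays were on different slides and scanned on different days, so slide and cell state cannot be told apart. Lmo2 lost its call without J1 (limma, adjusted p = 0.0907, at 2.61) or without R1 (0.0817, at 2.70).

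J1 cells in 2i were compared with J1 cells in the other medium. Flt1 and Gata1 were lower in 2i, and the bright Kdr probe was higher, which made 3 of 7 tested members called by limma against 13.6% of 13048 genes (7.13% lower and 6.47% higher). Flt1 read 0.24 and 0.15 in J1 and -2.61 and -1.70 in 2i. Gata1 read 0.36 and -0.27 in J1 and -1.08 and -1.07 in 2i. Kdr (bright probe) read 3.96 and 3.60 in J1 and 5.26 and 4.96 in 2i. None of these overlapped between the groups. Flt1 fell by 2.35 ± 0.31 on the log2 scale (5.09-fold; limma, adjusted p = 9.6e-05), Gata1 by 1.12 ± 0.40 (2.17-fold; limma, adjusted p = 0.047), and Kdr rose by 1.33 ± 0.36 (2.51-fold; limma, adjusted p = 0.0124). The 10-spot Kdr probe did not reach the background call on any of these 4 arrays. Gata1 stayed well above background in 2i, unlike in EpiSCs with IWP2.

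Etv2 (-0.26 ± 0.33), Lmo2 (-0.54 ± 0.28), Runx1 (0.19 ± 0.62) and Hbb-bh1 (0.53 ± 0.71) did not pass, and Tal1 and Hbb-y were not tested. Of 10 haematopoietic genes, Cd34 fell by 2.86 and Lyl1, a relative of Tal1, rose at least 1.75-fold. Nfe2 rose at least 1.42-fold, the 1 of 9 erythroid genes called. Of 13 endothelial genes, Nos3 (1.1) and Eng (1.09) rose and Esam fell (-1.51). Pgf, a ligand of Flt1, rose at least 1.56-fold, while Hif1a fell by 1.07. Of 8 mesoderm genes, T (at least 30.9-fold), Pdgfra (at least 3.10-fold), Lhx1 and Eomes fell, and 4 of 7 definitive endoderm genes fell, from sums of 7.76 to 9.21 to 1.67 to 1.85. Their part in the Flt1 result was not tested. The groups lay on different slides and scan days, which cannot be told apart from the medium. Gata1 lost its call when any 1 of the 4 arrays was left out (limma, adjusted p of 0.0583 to 0.275, at -1.43 to -0.80), and Kdr without 2i replicate 1 (0.0866, at 1.17) or J1 replicate 2 (0.0894, at 1.15).

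Between E5.5 and E6.5 epiblast, the interval in which the primitive streak begins to form, both Vegf receptors rose, Kdr with 1 of its 2 probes. Flt1 read -0.05 and -0.60 at E5.5 and 1.74 and 1.60 at E6.5, without overlap, and rose by 1.99 ± 0.32 on the log2 scale (3.98-fold; limma, adjusted p = 0.000946). It was 1 of 9 members called, against 5.09% of 13586 genes by limma (3.03% higher and 2.06% lower). The 10-spot Kdr probe read -5.70 and -5.10 at E5.5, under the background call, and -1.18 and -0.29 at E6.5. It rose by 4.67 ± 0.43 (at least 7.02-fold; limma over all named probes, adjusted p = 1.1e-05), while the bright Kdr probe differed by 0.19 ± 0.36. Etv2 differed by 0.88 ± 0.33 (limma, adjusted p = 0.11). The other factors had log2 differences of -0.52 (Tal1), -0.31 (Gata1), 0.21 (Lmo2) and 0.40 (Runx1), and the globins of 0.02 (Hbb-bh1) and 0.29 (Hbb-y), all with limma adjusted p of 0.404 or more.

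Among other genes of the programme, Gata2, a factor of early blood progenitors, rose at least 1.44-fold, and Csf1r (1.45) and Ldb2 (1.08) rose, 3 of 13 haematopoietic genes. Hbb-bt, an adult beta globin, rose at least 1.77-fold and Epor by 1.26, 2 of 10 erythroid genes. The median of the erythroid list was -0.26, beside 0.07 over all genes. Pdgfra (4.2), Pdgfrb (at least 2.84-fold) and Nrp2, a coreceptor for Vegf (1.20), rose, 3 of 10. Of 12 early mesoderm genes 10 rose, among them Mesp1 (at least 307-fold), T (6.38), Mixl1 (5.42) and Hand1 (at least 2.42-fold), with a list median of 3.29 beside 0.07 over all genes. Endothelial genes had 0 of 11 higher and 1 lower by limma, the tight junction gene Cldn5 (-1.81). Genes of visceral endoderm, the layer that covers the epiblast, summed to 8.43 and 88 on the E5.5 arrays and 18.2 to 28.1 at E6.5, and their part in these differences was not tested. Both stages shared a slide, and no left-out array ended the Flt1 call.

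From E6.5 epiblast to E7.5 embryonic ectoderm, most members went down. Of 9 tested, 5 were lower and 1 higher at E7.5, against 15.4% of 13628 genes called by limma (9.48% lower and 5.88% higher). The tissue also differs by label, since the E7.5 piece is ectoderm only. Etv2 read 1.72 and 2.11 at E6.5 and -0.07 and 0.60 at E7.5. Tal1 read -1.44 and -1.65 at E6.5 and -3.19 and -3.72, below the background call, at E7.5. Hbb-bh1 read -0.48 and -0.36 at E6.5 and -2.88 and -2.58 at E7.5. Each of these genes had all E7.5 arrays under all E6.5 arrays. Etv2 fell by 1.65 ± 0.33 (3.14-fold; limma, adjusted p = 0.00185) and Tal1 by 1.91 ± 0.34 (at least 3.08-fold; limma, adjusted p = 0.000743). Hbb-bh1 fell by 2.31 ± 0.71 (4.95-fold; limma, adjusted p = 0.0235) and Hbb-y by 1.40 ± 0.34 (at least 1.11-fold; limma, adjusted p = 0.00635). The bound for Hbb-y is short of 2-fold, since its E7.5 arrays were below the background call. The other Hbb-y probe was below the background call on all arrays of both stages, at means of -6.21 and -5.36.

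Kdr fell with both probes, by 1.93 ± 0.36 with the bright one (5.33 and 5.56 at E6.5, 3.32 and 3.71 at E7.5; limma, adjusted p = 0.0011) and by 1.24 ± 0.43 with the 10-spot one (limma over all named probes, adjusted p = 0.0407). Flt1 did not pass, at 1.74 and 1.60 against 1.96 and 1.05. Lmo2 rose by 1.16 ± 0.28 (2.23-fold; limma, adjusted p = 0.00641), from -1.39 and -1.09 to -0.66 and 0.50. Gata1 differed by -0.41 ± 0.40 and Runx1 by -1.39 ± 0.63, neither passing. Hba-a1 (at least 5.59-fold), Hba-a2 (-2.74), Hbb-bt (at least 1.48-fold) and the repressor Gfi1b (-1.87) fell, 4 of 10 erythroid genes, with 0 rising by limma. Of 13 haematopoietic genes, 4 fell and 1 rose, among them Csf1r (-1.47), Myb (-1.37) and Cbfa2t3 (-1.30) lower and Kit (2.17) higher. In the other lists, Cldn5 (4.2) alone of 10 endothelial genes rose, and Nrp2 (1.85), Pdgfrb (1.25) and Vegfa (1.01) rose among 10 Vegf and Pdgf genes. Of 12 mesoderm genes, 6 fell, led by Mesp1 (-5.23), Mixl1 (-5.09) and Eomes (-4.48), and Hand1 (2.92) and Foxc1 (2.57) rose. Medians were -0.80 for erythroid and -0.58 for mesoderm genes, beside -0.10 over all genes.

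Endoderm markers fell at the same step. Of 9 visceral endoderm genes 8 fell, from sums of 18.2 to 28.1 down to 1.60 to 2.37, and of 9 definitive endoderm genes 8 fell, from 28.9 to 36.0 down to 3.18 to 4.17. Whether this bears on the globins, Etv2 and Tal1 was not tested. E6.5 and E7.5 arrays lay on different slides and scan days, which cannot be told apart from the stage, and the E6.5 arrays also serve in the comparison with E5.5. Leaving out any 1 array ended the call of Hbb-bh1 (limma, adjusted p of 0.0639 to 0.114, at -2.46 to -2.16). Without E7.5 replicate 2 the calls of Hbb-y (-0.89, adjusted p = 0.0907) and Lmo2 (0.58, 0.0916) were lost, and without E6.5 replicate 1 that of Lmo2 (1.01, 0.0606). Under normexp correction Hbb-y differed by 0.02 (limma, adjusted p = 0.944).

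**Figure D4:**
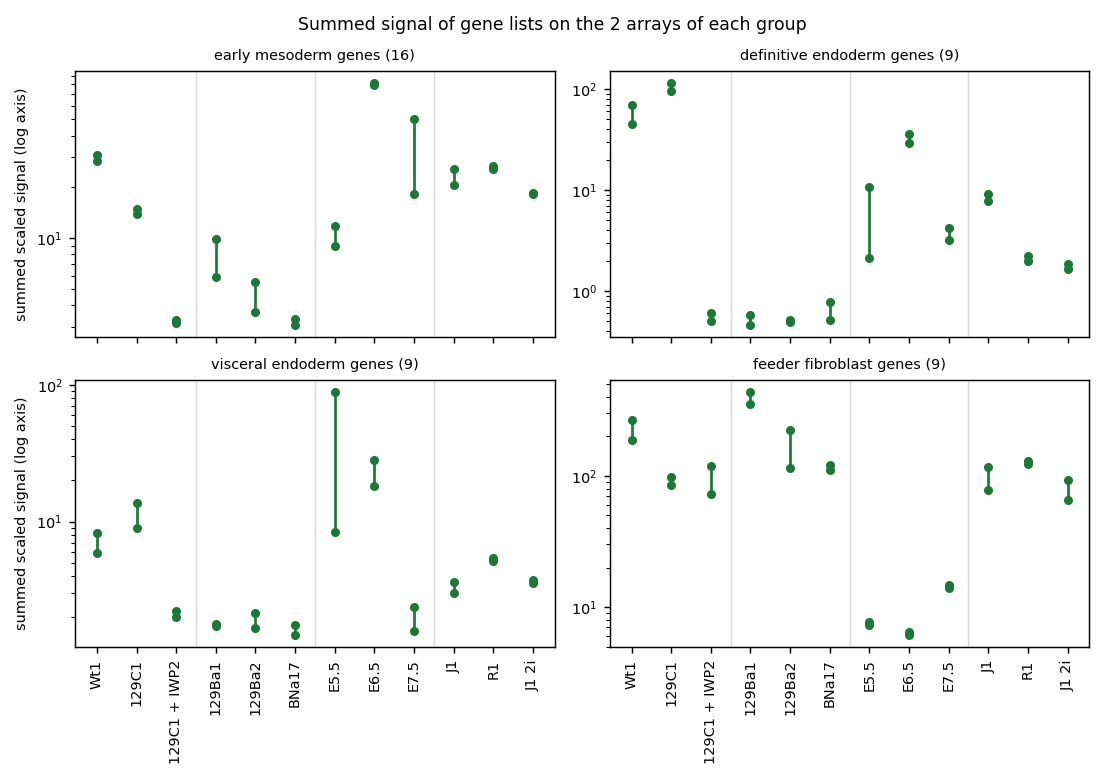
Summed linear signal (times the array's 75th percentile, log axis) of 4 marker lists on the 2 arrays of each group, joined by a line; the number of genes is in brackets. Definitive endoderm genes sum to 45.4 to 115 in Wt1 and 129C1 and to under 1 in IWP2-treated 129C1, 129Ba1, 129Ba2 and BNa17, and feeder genes are high in all cell lines.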

How the data were processed

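RNA of 24 samples was hybridised to single-colour Agilent arrays, 2 per group. Each deposited scanner file gives, per the file headers, linear intensity values per spot after the software's own background subtraction, and yes or no flags for outlier spots and for spots well above background. A table deposited by the authors, used as an alternative, holds log2 values that matched the same arrays after scaling by their 75th percentile and centring of each probe. The scan software, per the submitters' processing notes, was Feature Extraction 10.5.1.1 (Agilent). Each array held 62976 spots and 55681 probes, of which 27235 were named through their RefSeq accession (20660 genes). Outlier spots were dropped, spots of a probe averaged, and log2 of the signal taken minus the array's 75th percentile. A gene's brightest probe without a flagged value represented it.

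Groups came from the labels. Comparisons were fitted with limma 3.58.1 in R 4.3.3 over the genes that were above background on both arrays of 1 or more of the groups compared. All 24 arrays entered the fits between single groups, and line means entered the comparisons of 3 against 2 and of 5 against 2 lines. Calls needed 2-fold or more and a two-sided p, adjusted by Benjamini-Hochberg over all genes tested, below 0.05. The fitted difference decided the call, so a called gene can have a bound under 2-fold. Where no array of a side was above background, the fold is a bound: per array, the higher of the probe's own signal and the lowest signal well above background was set against the other side's mean. Whether a probe with several spots is above background was decided by most of its unflagged spots. The fits were tested on simulated data. Precision is limited by the number of arrays.

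Alternatives were normexp background correction with an offset of 50 (on the median signal, since the files hold no mean signal), quantile normalization, the authors' values, the mean of all probes, testing dim probes too, another variance model, no fold minimum, fits of the compared arrays only, blocks for replicate number, line or slide, the same-slide comparison and leaving out each array or line. Added after seeing the data were every probe as a row, the other probe of a member, and the median signal for normexp. The members and lists were chosen with earlier results of these data known. The 9 members are named always, with every probe. From other lists up to 4 called genes per comparison are named, those with the largest differences, with counts for the rest (some list genes are not reported here), and the 3 genes nearest in pattern are named for some members. Array coordinates are not given, because the array files use build mm9 and the reference was GRCm38.p6.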

Additional observations from a re-analysis of the deposited data

Results flagged for a closer look

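Among the 5 EpiSC lines, Wt1 stood apart in 2 members. For the 10-spot probe of Kdr (A_51_P316553) the gap between Wt1 and the next line was 0.712 of the whole range of line means, above the critical value of 0.71 for 5 values. For the dimmer probe of Hbb-y (A_55_P1967481) it was 0.717. Line means of that Kdr probe were -2.67 in Wt1 and -5.70 to -4.83 in the other lines, and those of the Hbb-y probe -2.33 against -6.03 to -4.98. Chance gives such a gap in about 1 of 20 groups, 13 probes were looked at, and the other probe of each gene did not reach the critical value. In the 4 other lines both probes were below the background call, so their order is not settled. The gap and range in both ratios therefore rest in part on levels under background.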

How the results depend on the processing

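Counts of called members, against the main 3 (IWP2), 2 (Wnt inhibitor lines), 4 (Wt1 against 129C1), 1 (EpiSC against mESC), 3 (2i), 1 (E6.5) and 6 (E7.5), moved by over 1.5 times under these settings; the cause was not tested. For most of these settings the share of all genes called is not given here, so the counts describe the members only. With the same-slide comparison, which sets treated 129C1 against the line Wt1, 5 members were called for IWP2. For the Wnt inhibitor lines the count was 1 with normexp, 1 with slide as a block and 4 with arrays as replicates and the line as a random block. For EpiSC against mESC it was 2 with quantile normalization and 2 with no fold minimum. It was 2 for E6.5 with the mean of all probes and 2 with every named probe as a row, and 2 for E7.5 with normexp. Leaving out 1 array or line gave 2 to 3 for IWP2, 0 to 3 for the Wnt inhibitor lines (0 without 129Ba2 or BNa17, where 40 and 42 genes in all were called by limma against 222), 2 to 3 for Wt1 against 129C1, 0 to 2 for EpiSC against mESC (0 without J1 or R1, 2 without R1 replicate 2), 1 to 3 for 2i, 1 for E6.5 and 3 to 5 for E7.5. A lone sample left on a side is assumed to vary like the others.

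Replicate numbers were not used as pairs in the main fits. Deviations of same-numbered arrays correlated at 0.18 (IWP2), 0.06 (Wt1), 0.06 (2i), 0.31 (E6.5) and 0.05 (E7.5). With 2 pairs each, these values cannot settle whether the samples were paired. With a replicate block the counts were 3 for IWP2, 4 for Wt1 against 129C1, 3 for 2i, 1 for E6.5 and 6 for E7.5, and, with the line as a random block, 3 for the Wnt inhibitor lines, where Tal1 passed (adjusted p = 0.0335, limma), and 1 for EpiSC against mESC.

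Of the calls not yet given, Kdr in 2i differed by 0.41 with the mean of both probes (adjusted p = 0.436, limma), Hbb-y at E7.5 by -0.28 (0.674) and Runx1 at E7.5 by -2.85 (0.00938). That Runx1 mean includes probe A_51_P206585, which read 1.86 and -3.73 on the 2 E6.5 arrays. The same probe was under the background call on both E7.5 arrays, so the Runx1 value is not settled. Of the called differences, 1 changed sign: Hbb-y at E7.5, 0.023 with normexp. The other sign changes were in differences that did not pass. With normexp they were Hbb-bh1 with IWP2 (0.041) and, at E6.5, Hbb-y (-0.28), Hbb-bh1 (-0.019) and Lmo2 (-0.026). With slide as a block they were Hbb-y (0.60) and Etv2 (0.70) in the Wnt inhibitor lines. With the mean of all probes they were Kdr in EpiSC against mESC (-0.056, and -1.0 with its other probe), Runx1 in 2i (-0.45, and -0.059 with quantile normalization) and Hbb-y at E6.5 (-0.18). Leaving out 1 array or line gave ranges across 0 for Hbb-bh1 (IWP2 -2.46 to 0.0038, E6.5 -0.033 to 0.080, 2i -0.48 to 1.54, EpiSC against mESC -1.67 to 1.14), Etv2 (IWP2 -0.70 to 0.32, Wnt inhibitor lines -0.83 to 0.70), Flt1 (E7.5 -0.62 to 0.30), Hbb-y (EpiSC against mESC -2.0 to 0.46), Kdr (Wt1 -0.22 to 0.37), Lmo2 (E6.5 -0.065 to 0.49), Runx1 (E6.5 -0.10 to 0.89, 2i -0.069 to 0.44) and Tal1 (EpiSC against mESC -0.47 to 0.21). Of 1053 single-gene values under an alternative, 960 kept their sign and their side of the threshold, 45 lost a call, 15 gained one and 33 changed sign. Many of the 1053 belong to differences not called in the main fits, and some settings cannot change the size of a difference. The count of 960 therefore does not measure how stable the calls are. Signal over background limits Tal1, Hbb-y and the low range of Gata1, for which sizes are bounds.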
